A study of Danio rerio with 9 samples.

Results

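The genes described here are zebrafish genes for the acidification of lysosomes and for the traffic that builds lysosomes and pigment granules. They were chosen by symbol alone, as every gene of the deposited cardiac crest and trunk crest table whose symbol begins with atp6v, atp6ap, bloc1s, ap3b, ap3d, ap3m or ap3s, or with hps or vps and a number. The rule found 75 members among 20847 genes, and all 75 were also in the count table of 31953 genes. They comprise 25 genes of the proton pump and its accessory proteins, 5 of BLOC-1, 2 of BLOC-2, 2 of BLOC-3, 6 of AP-3 and 35 vps genes. The rule itself uses no measured value, but the set was chosen with earlier results of these data known. A further 3 gene models that take a matching symbol (ATP6V1D, ATP6V1A and VPS50) only from a reference list held 0 reads in the 6 libraries of the count table and are not members.

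Bulk RNA-seq was made from 9 libraries of sorted embryo cells, 3 in each of 3 groups. Cardiac crest cells were mCherry-positive and came from 17 h post-fertilisation (16-somite) embryos of a line that carries myl7:nucGFP, UAS:NfsB-mCherry and -4.9sox10:GAL4-UAS-cre. The dissected region ran from the border of midbrain and hindbrain to somite 6. Trunk crest cells were GFP-positive and came from 24 h embryos of the line Tg(-4.9sox10:eGFP), from somites 7 to 16. Non-crest cells were the mCherry-negative cells of the same region, line and age as cardiac crest. Both lines mark crest by the same sox10 regulatory fragment, which is also active in some other tissue, such as the otic vesicle. Cardiac crest and non-crest cells share a line that further carries Cre, a green heart reporter and mCherry fused to a nitroreductase (NfsB). Whether the 3 libraries of a group stem from different embryo pools is not stated in the labels. The p-values therefore reflect only how far these libraries vary, a spread that may be technical. Axial level, age, fish line, reporter and library series all differ between cardiac and trunk crest and cannot be told apart.

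The vacuolar proton pump (V-ATPase) acidifies lysosomes, endosomes and young pigment granules. Its V1 sector in the cytosol burns ATP and its V0 sector in the membrane passes protons. Melanosomes and the related granules of other pigment cells are lysosome-related organelles. AP-3, BLOC-1 and BLOC-2 carry cargo to them from endosomes, BLOC-3 activates Rab32 and Rab38, and loss of several of these proteins causes Hermansky-Pudlak syndrome with albinism in people. The vps genes, first found in yeast, encode the tethers that fuse vesicles with endosomes and lysosomes (HOPS and CORVET), the ESCRT machinery that makes multivesicular bodies, recycling coats (retromer and retriever), Golgi and endosome tethers (GARP and EARP) and VPS13 lipid carriers. In zebrafish, loss of hps5, vps11, vps18, vps39 or several V-ATPase subunits leaves pigment cells pale.

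The count table held 34062539 to 45172404 reads a library, and the reads recovered for trunk crest numbered 25128422 to 29842884. The sort left sox10, the crest regulator whose DNA drives both reporters, at 246 to 446 CPM (each gene's reads scaled to the library total) in cardiac crest, 681 to 729 CPM in trunk crest and 9.04 to 27.8 CPM in non-crest. Markers of neural crest (5 genes in both tables, foxd3 and crestin not among them) summed to 1181 to 2029 CPM in cardiac crest, 1127 to 1282 CPM in trunk crest and 230.0 to 268 CPM in non-crest. Cardiac crest replicate 3 stood apart: muscle actin actc1b was at 8007 CPM there, against 4.55 and 13.8 CPM in replicates 1 and 2. Across genes, replicate 3 correlated with the other cardiac crest libraries at r = 0.939 and 0.932, while replicates 1 and 2 correlated with each other at 0.968. Non-crest replicate 3 also correlated less with its group (r = 0.896 and 0.889) than the other non-crest pair did (0.936). Trunk crest replicates 1 and 2 correlated at 0.926, 1 and 3 at 0.908, and 2 and 3 at 0.919. The trunk values were computed on scaled reads and the others on CPM, so they are not on the same scale. The 75 members summed to 3407, 3333 and 3301 CPM in cardiac crest replicates 1, 2 and 3. Replicate 3 differed within some of their groups, with the VPS13 genes at 559.6, 559 and 330.1 CPM and the ESCRT genes at 329, 321 and 479 CPM.

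Most members were lower in cardiac crest than in trunk crest. Of the 75, 48 were lower at an adjusted p below 0.05, 1 was higher (vps13d) and 26 did not pass. Among all genes tested, 12.5% were lower and 10.7% were higher, 23.2% in all, against 64.0% of members lower. The shares of all genes include genes with few reads, since no filter was used. The members were not compared with genes of like read level. The median log2 fold change of the members was -1.78, against 0.14 for all genes. All 3 cardiac crest libraries lay below all 3 trunk crest libraries for 50 members and above them for 3, where 19.9% of all genes lay below and 21.5% above. The test was limma on log2(value + 1) of the deposited reads scaled by size factor, with Benjamini-Hochberg adjustment over 20847 genes, and all adjusted p-values against trunk crest below come from it. A fold change on that scale understates genes with few reads. In bulk libraries, fewer cells of a type and less RNA per cell cannot be told apart.

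**Figure D1:**
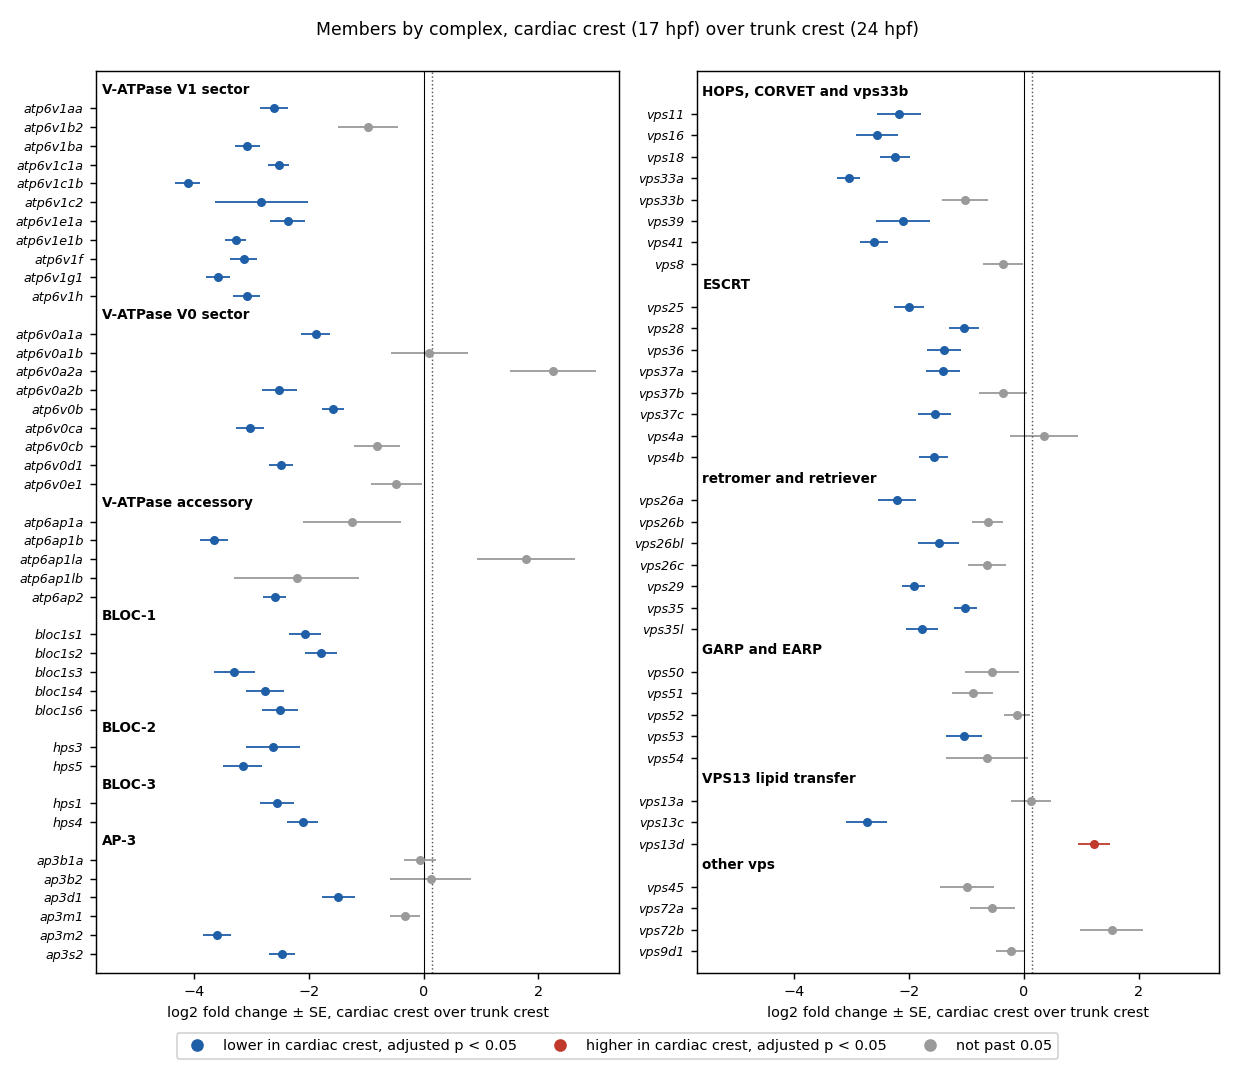
Each point is the log2 fold change of 1 member, cardiac crest over trunk crest, with its standard error as a bar, grouped by complex. Blue points passed the test as lower (48 genes), the red point as higher (vps13d), and grey points did not pass; the dotted line is the median of all genes, 0.14.

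The V1 sector of the proton pump had the lowest median log2 fold change of the 13 groups of members, -3.07. Of its 11 genes, 10 were lower in cardiac crest, with log2 fold changes between -4.11 and -2.37. Subunit C, which holds the stalks of the pump in place, had the member with the greatest difference of all 75, atp6v1c1b on chromosome 19 (33360790 to 33379642, plus strand, GRCz10). It had 1029, 692 and 808 scaled reads in cardiac crest, against 13131, 15465 and 14547 in trunk crest. No cardiac crest library came near the lowest trunk crest library, and the log2 fold change was -4.11 ± 0.22 (SE, n = 3 each, adjusted p = 1.62e-05). Its paralog atp6v1c1a averaged 1716 ± 50.0 scaled reads in cardiac crest, against 9866 ± 373 in trunk crest (SD), a smaller log2 difference of -2.52. The third subunit C gene, atp6v1c2, was rare, with 3.5, 14.6 and 4.32 scaled reads in cardiac crest against 35.5, 29.3 and 120 in trunk crest. Its call (adjusted p = 0.0356) did not hold when cardiac crest or trunk crest replicate 1 or 3 was left out (adjusted p 0.0582 to 0.113).

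The stalk subunits G and E followed the same direction. atp6v1g1, on chromosome 5, had 4558, 4067 and 3193 scaled reads in cardiac crest, against 39882, 52697 and 48158 in trunk crest. Its groups were far from overlapping (log2 fold change -3.58 ± 0.21, adjusted p = 2.13e-05). atp6v1e1b, whose loss in zebrafish also disturbs notochord vacuoles, had 2386, 2061 and 2053 scaled reads in cardiac crest, against 19101, 22742 and 20814 in trunk crest. The cardiac crest libraries lay close together here, and the difference was -3.27 ± 0.18 on the log2 scale (adjusted p = 1.87e-05). The paralog atp6v1e1a averaged 379.8 ± 107 scaled reads in cardiac crest, against 1938 ± 403 in trunk crest, also a call.

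The catalytic core behaved in the same way except for 1 gene. Subunit A is the ATP-binding part of the head, and its gene atp6v1aa averaged 416 ± 49.9 scaled reads in cardiac crest against 2541 ± 361 in trunk crest (log2 fold change -2.61). Reads of atp6v1aa are less certain, since 47.8% of its bases lie inside another gene and counting took no account of strand. Of the subunit B genes, atp6v1ba on chromosome 17 had 2642, 2277 and 1762 scaled reads in cardiac crest, against 16736, 20594 and 18166 in trunk crest (-3.07 ± 0.21, adjusted p = 4.70e-05). Its paralog atp6v1b2 was the V1 gene that did not pass, with 247, 415 and 389 scaled reads in cardiac crest, against 1577, 520.3 and 366 in trunk crest. The groups of atp6v1b2 overlapped, with trunk replicates 2 and 3 near the cardiac crest level (adjusted p = 0.218).

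The remaining V1 members encode a subunit of the central rotor and the brake of the pump. No gene for subunit D is among the members. Subunit H, which silences a V1 sector that has come off the membrane, had 1525, 921 and 1068 scaled reads of atp6v1h in cardiac crest, against 10229, 8778 and 10133 in trunk crest (-3.08 ± 0.24, adjusted p = 7.33e-05). atp6v1f, for rotor subunit F, had 1373, 1378 and 1508 scaled reads in cardiac crest, against 9297, 14693 and 14165 in trunk crest (-3.13 ± 0.23, adjusted p = 5.88e-05). Here 52.9% of the gene's bases lie inside other genes, the LAMTOR4 model among them.

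In the V0 sector 5 of 9 genes were lower and 4 did not pass. The proteolipid ring gene atp6v0ca, on chromosome 3, had 4519, 5180.1 and 3319 scaled reads in cardiac crest, against 26985, 40309 and 37865 in trunk crest. Its log2 fold change was -3.02 ± 0.24 (adjusted p = 8.94e-05). Its paralog atp6v0cb did not pass, at 882, 1519 and 871 scaled reads in cardiac crest, against 3191, 1123 and 1752 in trunk crest, with overlapping groups (adjusted p = 0.179). The ring partner atp6v0b averaged 2845 ± 277 scaled reads in cardiac crest, against 8505 ± 612 in trunk crest (-1.58), and atp6v0d1, which joins the ring to the rotor, averaged 2345 ± 276 against 13135 ± 2368 (-2.48).

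Subunit a sets where in the cell a pump goes, and 2 of its 4 genes among the members were called. Genes of subunit a under symbols outside the rule were not looked at. atp6v0a2b was lower in cardiac crest, at 610.0, 482 and 901 scaled reads against 2878, 4754 and 3604 in trunk crest (-2.51 ± 0.30, adjusted p = 0.000639). atp6v0a1a was lower as well, averaging 550.4 ± 125 against 1998 ± 204 scaled reads (-1.88). atp6v0a1b averaged 37.9 ± 8.60 against 41 ± 27.8 scaled reads and did not pass (adjusted p = 0.934). atp6v0a2a lay on the other side, with 88.2, 105 and 76.3 scaled reads in cardiac crest, against 8.28, 12 and 54.7 in trunk crest. Its libraries did not overlap, yet with its spread in trunk crest it did not pass (2.25 ± 0.74, adjusted p = 0.0581). It passed as higher when the values were rescaled to the upper quartile or when trunk replicate 3 was left out. The small membrane subunit atp6v0e1 did not pass either (-0.47, adjusted p = 0.481).

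Of the 5 accessory genes, 2 were lower. atp6ap1b, on chromosome 23, encodes an assembly factor of the V0 sector, and had 2536, 1406 and 1868 scaled reads in cardiac crest against 21992, 26809 and 22254 in trunk crest (-3.65 ± 0.25, adjusted p = 3.95e-05). atp6ap2, the (pro)renin receptor, had 5488, 4226 and 4988 scaled reads in cardiac crest against 24139.6, 33232 and 31756 in trunk crest (-2.59 ± 0.21, adjusted p = 8.48e-05). Both showed a wide gap between the groups. The related atp6ap1a, atp6ap1la and atp6ap1lb averaged 112, 32.1 and 49.6 scaled reads in cardiac crest, against 244, 7.62 and 212 in trunk crest. None of these passed, and their replicates varied widely (SE 0.85 to 1.09 on the log2 scale).

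All 9 BLOC genes among the members were lower in cardiac crest, with log2 fold changes between -3.29 and -1.78. In BLOC-1, which sorts cargo out of early endosomes, bloc1s3 had 113, 116 and 132 scaled reads in cardiac crest, against 776, 1678 and 1294 in trunk crest (-3.29 ± 0.36, adjusted p = 0.000410). Its cardiac crest libraries were almost level, but 89.5% of its bases lie inside another gene model on the same strand, so its reads cannot be assigned with certainty. bloc1s4 averaged 2122 ± 703 scaled reads in cardiac crest against 14534 ± 5698 in trunk crest, and bloc1s6, the pallidin gene, 1403 ± 581 against 7548 ± 1383. bloc1s1 and bloc1s2, whose products also serve in the BORC complex that moves lysosomes, had the smaller BLOC-1 differences, -2.07 and -1.78.

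In BLOC-2, hps5 on chromosome 25 (3022687 to 3066700, minus strand) had 273, 267 and 130.3 scaled reads in cardiac crest, against 1794, 1906 and 1965 in trunk crest. Its trunk libraries lay within a narrow band far above the others (-3.15 ± 0.34, adjusted p = 0.000386). Its partner hps3 averaged 86.7 ± 45.1 scaled reads in cardiac crest, against 491 ± 65.0 in trunk crest (-2.62). Both BLOC-3 genes were lower: hps1 averaged 199 ± 40.5 against 1154 ± 107 scaled reads (-2.55), and hps4 799.6 ± 232 against 3396 ± 683 (-2.10).

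AP-3, the coat that takes cargo from endosomes to lysosomes and melanosomes, was divided. The medium chain gene ap3m2 on chromosome 5 (13874891 to 13890228, minus strand), whose mammalian counterpart is enriched in neurons, had 1490.2, 1044 and 1014 scaled reads in cardiac crest against 14498, 17269 and 11093 in trunk crest. This was the third largest difference among the members (-3.59 ± 0.25, adjusted p = 4.40e-05). The other medium chain gene, ap3m1, had 2012, 1445 and 2528 scaled reads in cardiac crest, against 2419.8, 2729 and 2189.7 in trunk crest, overlapping groups that did not pass (-0.33 ± 0.25, adjusted p = 0.394). The small chain ap3s2 was lower (1625 ± 299 against 8942 ± 1315 scaled reads), though 48.5% of its bases lie inside another gene. The delta chain ap3d1 was lower by less (-1.48). Neither beta chain passed, with ap3b1a at -0.06 ± 0.28 and the rare ap3b2 at 0.12 ± 0.70.

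The HOPS and CORVET tethers share a core of vps11, vps16, vps18 and vps33a, and all 4 were lower. vps33a, the SNARE-binding core subunit, had 563, 649 and 666 scaled reads in cardiac crest, against 5431, 4953 and 5209 in trunk crest (-3.05 ± 0.20, adjusted p = 3.85e-05). vps11 had 247, 124 and 312 scaled reads in cardiac crest, against 880.3, 1012 and 994 in trunk crest (-2.17 ± 0.38, adjusted p = 0.00424). vps18 had 284, 268 and 306 scaled reads in cardiac crest, against 1392, 1523 and 1186 in trunk crest (-2.25 ± 0.26, adjusted p = 0.000507). The groups were clear of each other for each of these genes, and vps16 averaged 385 ± 190.5 against 2139 ± 423 scaled reads.

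The subunits that tell the 2 tethers apart did not give the same call. vps39 and vps41 belong to HOPS, the late endosome and lysosome tether. vps39 had 185, 407 and 156 scaled reads in cardiac crest, against 563, 1385 and 1226 in trunk crest (-2.11 ± 0.47, adjusted p = 0.0135). Cardiac crest replicate 2 and trunk replicate 1 lay nearest each other, and the adjusted p was 0.0528 without cardiac crest replicate 1. vps41 averaged 344 ± 47.2 against 2099 ± 158 scaled reads (-2.61). vps8, which belongs to the early endosome tether CORVET, did not pass, with 349, 514 and 247 scaled reads in cardiac crest against 527, 443 and 409 in trunk crest (-0.37 ± 0.35, adjusted p = 0.490). vps33b, which pairs with another partner outside HOPS, did not pass, although its highest cardiac crest library (293 scaled reads) lay below its lowest trunk crest library (307; -1.03 ± 0.40, adjusted p = 0.0976). Whether the HOPS genes differed more than vps8 was not tested.

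The median log2 fold change was -2.21 for these tethers, -1.40 for ESCRT, -1.49 for retromer and retriever and -0.65 for GARP and EARP. Of the 8 ESCRT genes, 6 were lower, with log2 fold changes of -2.00 to -1.04. vps25 of ESCRT-II averaged 336 ± 47.9 scaled reads in cardiac crest, against 1345 ± 152 in trunk crest, and vps36, its partner, 653 ± 212 against 1649 ± 91.0. Of the ATPases that take ESCRT-III apart, vps4b averaged 2429 ± 776 against 7022 ± 695 scaled reads and was lower, while vps4a averaged 190.0 ± 47.9 against 176 ± 116 and did not pass. Bases inside other genes make up 44.6% of vps36 and 46.0% of vps4b. Among the ESCRT-I genes vps28 (-1.04), vps37a (-1.41) and vps37c (-1.55) were lower and vps37b was not called. The call for vps28 was lost when cardiac crest replicate 1 or 2, or trunk replicate 2 or 3, was left out.

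Retromer recovers receptors from endosomes, and 5 of 7 retromer and retriever genes were lower. Its cargo arm genes vps26a, vps29 and vps35 averaged 4279 ± 2207, 3184 ± 276 and 1564 ± 104 scaled reads in cardiac crest, against 18283 ± 1298, 12154 ± 2035 and 3186 ± 296 in trunk crest. The log2 differences were -2.22, -1.92 and -1.02. vps26bl (-1.49) and the retriever gene vps35l (-1.78) were lower too, while vps26b and vps26c did not pass at -0.63 and -0.64. In GARP and EARP, which receive endosome vesicles at the Golgi and at recycling endosomes, only vps53 of 5 genes passed (356 ± 92.8 against 732 ± 146 scaled reads, adjusted p = 0.0421), and 8 of 12 alternative settings lost that call. vps52, a subunit of both, averaged 993 ± 61.0 against 1087 ± 141 scaled reads, with a log2 fold change of -0.12 ± 0.23. vps51 did not pass, although its groups did not overlap (-0.90 ± 0.35, adjusted p = 0.0993). vps50 and vps54 overlapped and did not pass, at -0.55 and -0.65. For vps50, 31.7% of the bases lie inside other gene models. None of vps45, vps72a, vps72b and vps9d1 passed; vps72b, whose product is a chromatin protein in spite of its yeast name, was at 1.52 ± 0.55 (adjusted p = 0.0771).

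The 3 VPS13 genes encode long proteins that pass lipids between organelles, and they differed among themselves. vps13c was lower, at 86.1, 104 and 70.6 scaled reads in cardiac crest against 499, 622 and 628 in trunk crest (-2.74 ± 0.35, adjusted p = 0.000903). vps13a did not pass, averaging 346 ± 76.7 against 321 ± 94.1 scaled reads. vps13d, linked in human cells to mitochondria and peroxisomes, was the member that was higher. It had 17104, 14114 and 9159.7 scaled reads in cardiac crest against 4325, 6877 and 5934 in trunk crest, so the groups did not overlap (1.22 ± 0.28, adjusted p = 0.0149). Leaving out cardiac crest replicate 1 or 2 took the adjusted p to 0.0568 and 0.0582.

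Against non-crest, vps13d was also the one member called. At chromosome 23, 21768881 to 21837047 (minus strand), it had 547, 539 and 315 CPM in cardiac crest, against 69.5, 55.0 and 32.0 CPM in non-crest. The groups lay far apart, and the log2 fold change was 3.21 ± 0.38, a 9.26-fold higher level (adjusted p = 0.00675). This test was edgeR's quasi-likelihood test on the raw counts, Benjamini-Hochberg adjusted over 19648 genes, and the error is derived from it, as the log2 value over the root of F. It held in all 11 alternative settings, with adjusted p at most 0.0456. Whole gene bodies were counted, so reads from the introns of this 68167-base gene are included. Of all genes tested, 0.29% were higher and 1.21% were lower, 1.5% in all.

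No member was called lower than in non-crest, and DESeq2 gave the same counts of 1 higher and 0 lower. At an unadjusted p below 0.05, 7 members were higher and 1 was lower (vps13a), where 4.39% of all genes were higher and 6.45% lower. The libraries did not overlap for 10 higher and 2 lower members, where 8.76% of all genes were higher and 8.26% lower in that way. The members' median log2 fold change was 0.35, against -0.04 for all genes. Of the genes past the unadjusted p, the (pro)renin receptor gene atp6ap2 had 175, 161 and 172 CPM in cardiac crest against 83.2, 114 and 76.0 CPM in non-crest (0.92 ± 0.27, adjusted p = 0.218). Its groups did not overlap. vps13a, named after its value was seen, had 9.87, 16.6 and 10.1 CPM in cardiac crest, against 23.6, 17.5 and 33.3 CPM in non-crest (-1.08 ± 0.44, adjusted p = 0.419).

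Of the 12 genes with the greatest differences from trunk crest, none was called against non-crest, and their log2 fold changes there ran from -0.27 to 1.28. atp6v1c1b had 32.9, 26.4 and 27.8 CPM in cardiac crest against 29, 62.4 and 18.6 CPM in non-crest (-0.27 ± 0.43, adjusted p = 0.877). atp6v0ca averaged 152 ± 42.2 CPM in cardiac crest, against 149.7 ± 15.7 CPM in non-crest (0.01 ± 0.30), a difference whose sign turned in 7 of 11 alternative settings. vps18, which is not among these 12 genes (-2.25 against trunk crest), averaged 9.94 ± 0.77 CPM in cardiac crest, against 7.77 ± 6.71 CPM in non-crest. Non-crest libraries varied more, with a median coefficient of variation of the members of 26.5% in cardiac crest and 36.7% in non-crest. Differences within that spread were not detectable here.

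**Figure D2:**
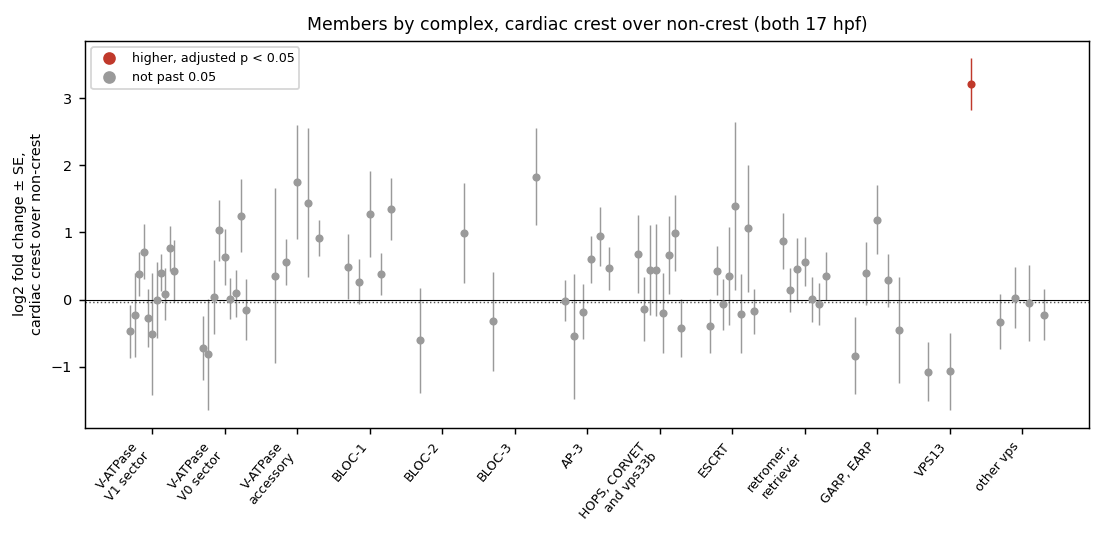
Each point is the log2 fold change of 1 member, cardiac crest over non-crest, with its error as a bar, grouped by complex along the horizontal axis. vps13d, in red at 3.21, is the member that passed the test, and the other 74 lie between -1.08 and 1.83.

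The 2 comparisons share the cardiac crest libraries, so they are set side by side only by their values. To place all 9 libraries on 1 scale, CPM was computed over the 20847 genes common to both tables, with trunk crest reads recovered from the scaled values. CPM does not correct for genes that take up many reads, and gch2 alone held 41148 to 45424 CPM in trunk crest. For atp6v1c1b, trunk crest over cardiac crest was 13.7 in CPM and 17.2 by the fold change from limma. Shares of genes above or below the other libraries in CPM carry the same limit. The tables were made separately, and trunk crest was not tested against non-crest. The 75 members summed to 3347 ± 54.4 CPM in cardiac crest, 11642 ± 617 CPM in trunk crest and 2347 ± 423 CPM in non-crest (SD, n = 3 each). The V-ATPase genes gave 1184 ± 112, 7106 ± 644 and 908 ± 277 CPM in the same order of groups, and GARP and EARP gave 65.9 ± 4.29, 74.5 ± 6.61 and 52.5 ± 19.7 CPM. Each trunk crest library was above all 6 other libraries for 46 members (61.3%), against 10.2% of all genes, and below all 6 for 2 members (2.67%), atp6v0a2a and vps72b, against 18.8% of all genes.

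Individual genes showed the same layout. hps5 gave 8.73, 10.2 and 4.52 CPM in cardiac crest, 50.8, 51.7 and 54.3 CPM in trunk crest, and 7.94, 1.09 and 3.12 CPM in non-crest. vps11 gave 7.88, 4.73 and 10.8 CPM in cardiac crest, 24.9, 27.4 and 27.5 CPM in trunk crest and 2.74, 7.07 and 5.03 CPM in non-crest. In both genes the trunk libraries stood alone above the others. vps13d had another order, with 547, 539 and 317 CPM in cardiac crest, 122, 186 and 164 CPM in trunk crest and 70.1, 56.1 and 32.4 CPM in non-crest. Its 3 groups were all separate.

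**Figure D3:**
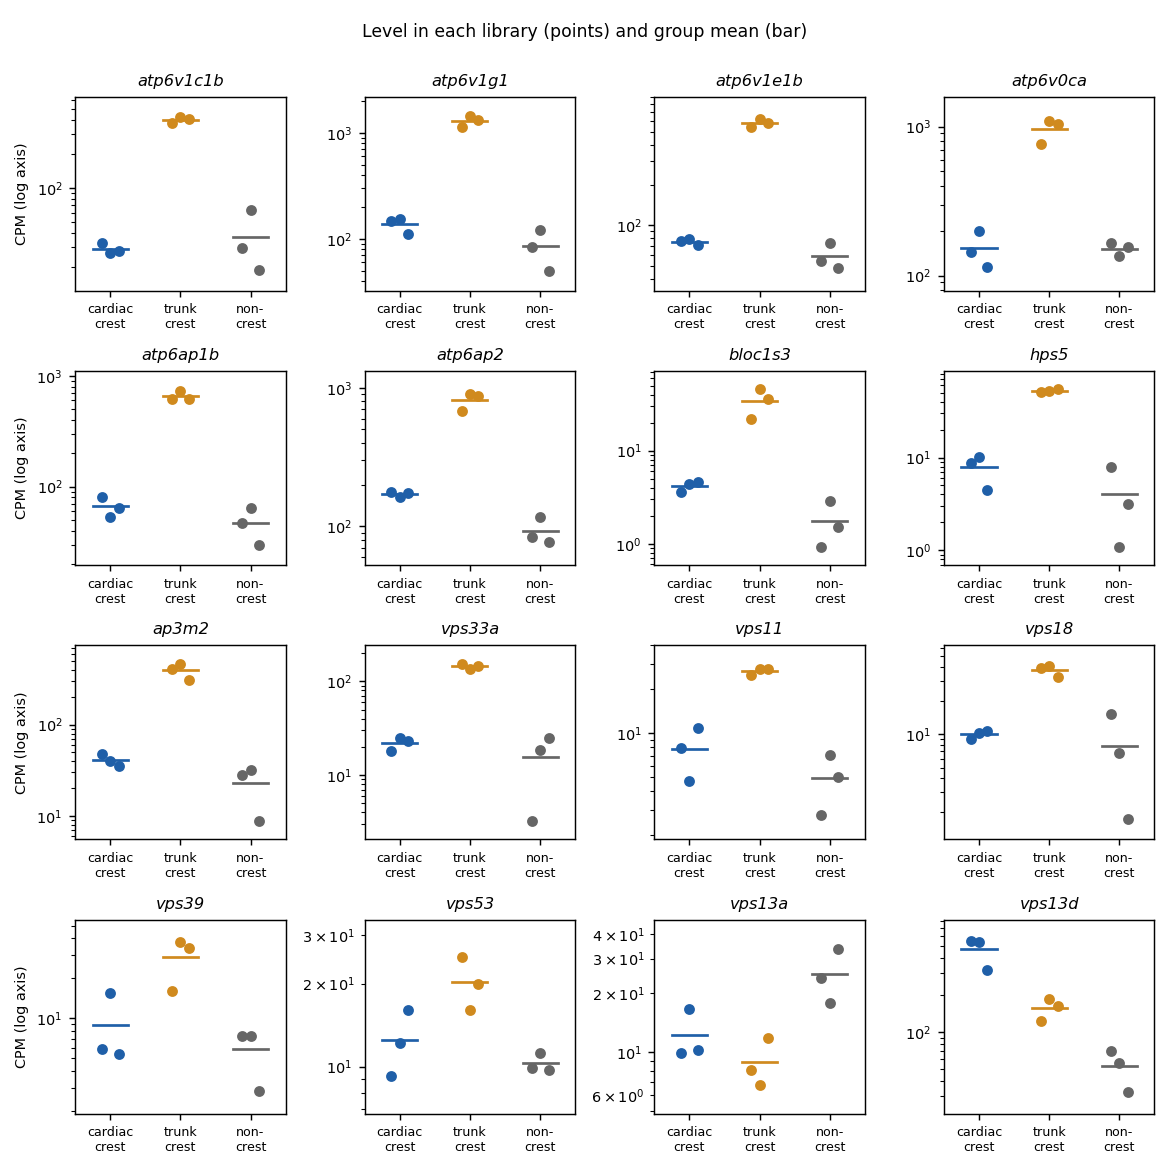
Level of 16 members in each of the 9 libraries, in CPM on log axes that differ between panels; points are libraries and bars are group means. Trunk crest points lie above the rest for most genes shown, while vps13d is highest in cardiac crest (317 to 547 CPM) and lowest in non-crest (32.4 to 70.1 CPM).

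Where a subunit has several genes among the members, their shares of the summed reads of those genes can be set side by side. These shares are a description with no test, and since whole gene bodies of unequal length were counted, they compare libraries and do not give proportions of transcripts. ap3m2 held 42.6%, 41.9% and 28.6% of all medium chain reads of AP-3 in cardiac crest, 85.7%, 86.4% and 83.5% in trunk crest and 33.7%, 33.8% and 24.9% in non-crest. The trunk shares lay above all others and the cardiac crest and non-crest shares overlapped. atp6v1c1b held 32.7% ± 4.52 of subunit C reads in cardiac crest, 59.1% ± 1.25 in trunk crest and 49.0% ± 0.72 in non-crest, and here no 2 groups overlapped. vps26a held 60.6% ± 6.33 of the reads of vps26a, vps26b and vps26bl in cardiac crest. Its share was 81.2% ± 1.15 in trunk crest and 49.7% ± 3.71 in non-crest. vps26c was not in this sum, and averaged 187, 222 and 131 CPM in cardiac crest, trunk crest and non-crest.

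Other shares differed less between cardiac and trunk crest. atp6v0ca held 80.1% ± 3.26 of its pair's reads in cardiac crest, 94.1% ± 4.14 in trunk crest and 80.4% ± 4.45 in non-crest. Among the 4 subunit a members, atp6v0a2b held 48.9% ± 4.09 of the reads in cardiac crest, 63.8% ± 7.60 in trunk crest and 24.3% ± 3.64 in non-crest. The vps33a share of the VPS33 pair was 74.5% ± 8.13 in cardiac crest and 92.3% ± 1.99 in trunk crest. Non-crest was split for this pair, at 16.0%, 73.9% and 86.7%. For atp6v1ba against atp6v1b2 the groups overlapped (86.0% ± 4.91 in cardiac crest, 95.6% ± 3.70 in trunk crest and 82.7% ± 8.85 in non-crest).

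**Figure D4:**
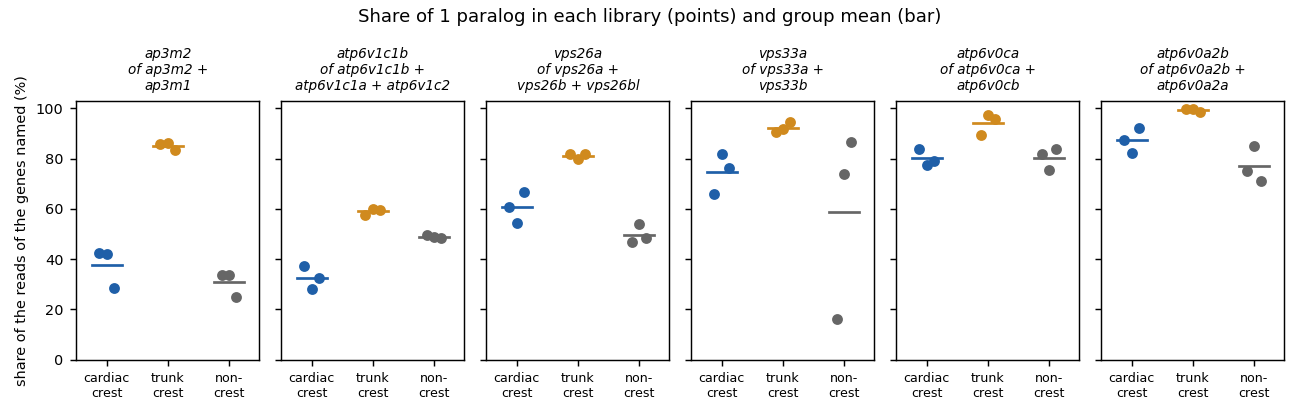
Share, in percent, of the reads of a paralog group that came from the first gene named, for 6 groups; points are libraries and bars are group means. The ap3m2 share is 83.5% to 86.4% in trunk crest, above every cardiac crest (28.6% to 42.6%) and non-crest library (24.9% to 33.8%).

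The members lie on 24 chromosomes and the 48 that were lower on 22. Of the pairs within 1000000 bases of each other, the closest were atp6v1aa and atp6v0a2b on chromosome 5, with 283870 bases between them, and atp6v0ca and atp6v0a1a on chromosome 3, with 866758 bases between them. In all, 17 members have bases inside another gene. For 7 members the overlap exceeded 25%, and 6 of these were among the 48 that were lower.

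Genes of the same pathways outside the membership were described from 6 lists. Of 39 tested lysosomal hydrolases and activators, 24 were lower in cardiac crest than in trunk crest and 2 were higher, with a median log2 fold change of -1.48. Acid sphingomyelinase smpd1 averaged 22.2 ± 11.4 scaled reads in cardiac crest, against 488 ± 65.8 in trunk crest (-4.52). The lysosomal phospholipase pla2g15 averaged 511 ± 105 against 6784 ± 116 scaled reads (-3.75), the glucocerebrosidase gene gba 16.7 ± 14.4 against 163 ± 72.6 (-3.73), and galns, a keratan sulphate sulphatase, 288 ± 107 against 3151 ± 558 (-3.49). The 2 higher genes, named after their values were seen, were aga, an enzyme of glycoprotein breakdown (1451 ± 119 against 707 ± 170.2 scaled reads, 1.06), and the rare cathepsin gene ctss2.1 (31.4 ± 16.4 against 0.48 ± 0.83).

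Of 30 lysosomal membrane and associated proteins, 14 were lower and 0 higher (median -0.89). Among them were ostm1, the partner of the lysosomal chloride exchanger (-2.71), cln3 (-2.05), a gene of Batten-type storage disease in people, and the cholesterol carrier npc2 (4298 ± 1032 against 20701 ± 3728 scaled reads, -2.28). Of 13 genes of the Ragulator, Rag and folliculin set, which anchors the nutrient sensor mTORC1 at the lysosome, 6 were lower and 0 higher (median -1.10). The Ragulator subunits lamtor5, lamtor2 and lamtor3 were at -2.70, -2.00 and -2.00, and flcn, which acts on the Rag GTPases, at -2.48. Of 48 endosomal Rab and partner genes, 28 were lower and 0 higher (median -1.24). The phosphatidylinositol 3-kinase pik3c3, the animal counterpart of yeast Vps34, had 201, 225 and 189 scaled reads in cardiac crest, against 7762, 6328 and 5265 in trunk crest (-4.95 ± 0.24, adjusted p = 1.45e-05). The late endosome genes rab7b and mon1ba were at -3.37 and -3.12 and the early endosome sorting nexin snx3 at -2.70.

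Melanosome and melanin genes had the lowest median of the 6 lists. Of 20 tested, 19 were lower and 0 higher, with a median of -5.00, and dtnbp1b, a BLOC-1 subunit gene named after its value was seen, did not pass. Its paralog dtnbp1a, also named after its value was seen, was lower (1278 ± 485 against 14114 ± 1587 scaled reads, -3.52). The melanin enzymes tyrp1b and dct averaged 35.5 ± 57.9 and 6.15 ± 2.97 scaled reads in cardiac crest, against 71998 ± 17239 and 37498 ± 8231 in trunk crest. pmelb, for the fibril protein of melanosomes, averaged 12.3 ± 16.2 against 609.9 ± 148 scaled reads, and the transporter slc45a2 averaged 219 ± 150.0 against 13326 ± 2369. Of 6 MiT/TFE factors, the transcription factors of lysosome and melanocyte genes, 3 were lower and 0 higher (median -0.89). The melanocyte factor mitfa averaged 482 ± 339.7 scaled reads in cardiac crest, against 5544 ± 2240.3 in trunk crest (-3.67), tfeb 181 ± 63.7 against 747 ± 391 (-1.96), and tfec 3622 ± 1449 against 10774 ± 3097 (-1.61). The other 3, mitfb, tfe3a and tfe3b, did not pass. Of the lists with 0 higher genes by limma, the membrane and endosomal lists each had 1 gene higher at an unadjusted p below 0.05 (18.4% of all genes) and the others 0, and edgeR on the recovered reads also gave 0 in each.

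Against non-crest, edgeR called 1.5% of all genes tested. Of these 6 lists it called 1 gene, in the endosomal list. DESeq2 called more: 1 hydrolase, 1 membrane, 2 melanosome, 1 MiT/TFE and 2 endosomal genes higher, and 1 membrane and 1 endosomal gene lower. DESeq2 also called more of all genes than edgeR did (counts in the last section). Its share of all genes is not given here, and whether the lists exceed it was not tested, so these counts are not a result about the lists. The gene called by edgeR was becn1, a partner of pik3c3 in autophagy, at 304, 291 and 187 CPM in cardiac crest, against 57.2, 69.5 and 33.2 CPM in non-crest (2.34 ± 0.35, adjusted p = 0.0189). Its groups did not overlap. pik3c3 itself averaged 7.17 ± 1.24 CPM in cardiac crest, against 8.22 ± 3.78 CPM in non-crest (-0.26, adjusted p = 0.913). A further 4 genes, named after their values were seen, had no overlap between the groups and a log2 fold change beyond 3 in either direction, and edgeR did not call them. Of all genes tested, 8.76% were higher and 8.26% lower without overlap, and the share also beyond 3 was not counted. tfec, the pigment cell factor, had 107, 89.0 and 179 CPM in cardiac crest, against 11.4, 14.5 and 0.29 CPM in non-crest (3.95 ± 1.05, adjusted p = 0.165). The channel gene trpm1b had 232, 192 and 82.0 CPM in cardiac crest, against 18.4, 7.81 and 0.29 CPM in non-crest (4.38 ± 1.14, adjusted p = 0.152). The melanosome receptor gene gpr143 had 107, 73.8 and 27.9 CPM in cardiac crest, against 11.6, 9.40 and 2.72 CPM in non-crest (3.24 ± 0.65, adjusted p = 0.0599). The phosphatase gene acp5a had 0.60, 0.62 and 0.32 CPM in cardiac crest, against 3.05, 1.35 and 84.4 CPM in non-crest (-6.03 ± 1.65, adjusted p = 0.177), with non-crest replicate 3 far above the other 5 libraries. The medians of the 6 lists ran from -0.16 for MiT/TFE factors to 1.02 for melanosome genes.

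**Figure D5:**
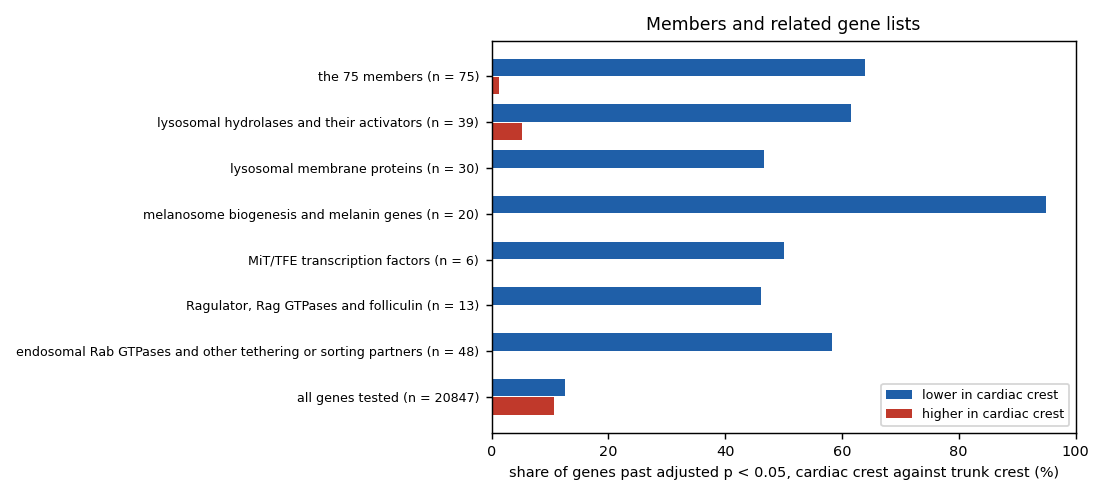
Bars give the share of genes, in percent, past the adjusted p of 0.05 as lower (blue) or higher (red) in cardiac crest than in trunk crest, for the 75 members, 6 related lists and all 20847 genes. Lower genes make up 64.0% of the members and 95.0% of the melanosome list, against 12.5% of all genes.

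Markers of pigment cells moved with the members. The 8 melanophore markers summed to 12.3 to 32.6 CPM in cardiac crest, 2815 to 4044 CPM in trunk crest and 7.31 to 20.6 CPM in non-crest, and all 8 were lower in cardiac crest than in trunk crest. The 7 xanthophore markers summed to 29.9 to 60.4 CPM in cardiac crest, 42292 to 46777 CPM in trunk crest and 15.6 to 54.8 CPM in non-crest, and 7 of 7 were lower. In trunk crest most of that sum was gch2, a pteridine enzyme, at 10.4 to 44.1 CPM in cardiac crest and 41148 to 45424 CPM in trunk crest. The 7 iridophore markers summed to 288 to 389 CPM in cardiac crest, 1816 to 1918 CPM in trunk crest and 164 to 177 CPM in non-crest, and 6 of 7 were lower. The melanophore list shares mitfa, and the iridophore list tfec, with the MiT/TFE list. All melanophore markers other than mitfa are also in the melanosome and melanin list, so their calls repeat genes counted above. None of these markers was at 0 in all libraries of a group. The part of pigment cells in the members' differences was not tested.

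Skeletal muscle markers set cardiac crest replicate 3 apart from replicates 1 and 2. They summed to 23.9, 30.5 and 9311 CPM in cardiac crest, 21752, 5573 and 7855 CPM in trunk crest and 11544, 11669 and 7305 CPM in non-crest. Without cardiac crest replicate 3, again 48 members were lower than in trunk crest, with atp6v1c2 lost and vps26b gained. Trunk crest replicate 1 was the highest of its group in muscle markers and also in neuron markers. Neuron markers summed to 241, 382 and 248 CPM in cardiac crest and 783, 238 and 200 CPM in trunk crest. In non-crest they summed to 254, 550 and 118 CPM. Epidermal markers summed to 122 to 264 CPM in cardiac crest, 12.6 to 86.9 CPM in trunk crest and 5483 to 14409 CPM in non-crest. Notochord markers, another tissue rich in V-ATPase, summed to 16.5 to 53.6 CPM, 0.58 to 35.8 CPM and 139 to 195 CPM in cardiac crest, trunk crest and non-crest, with noto at 0 in trunk crest. Ionocyte markers, of ion-transporting skin cells, summed to 3.99 to 15.2 CPM in cardiac crest, 2.1 to 6.05 CPM in trunk crest and 1.55 to 170 CPM in non-crest. Endothelial markers summed to 63.4 to 94.2 CPM in cardiac crest, 5.60 to 7.16 CPM in trunk crest and 175 to 186 CPM in non-crest. Macrophage and myeloid markers gave 22.6 to 37.7, 19.5 to 44.6 and 27.7 to 35.7 CPM in the same order of groups. The gene csf1ra is on this list and on the xanthophore list. These sums hold only the listed genes found in both tables. Those were 4 of 8 ionocyte genes (foxi3a, foxi3b, ca15a and gcm2 not among them) and 4 of 7 epidermal genes (cyt1, krt91 and agr1 not among them). For muscle and for notochord they were 7 of 8 genes each, for endothelium 5 of 6 and for macrophage and myeloid cells 8 of 9.

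In the authors' deposited table, whose fold change runs trunk crest over cardiac crest, 49 members were higher in trunk crest and 2 higher in cardiac crest at the authors' adjusted p below 0.05. All 49 members called here were called in the authors' deposited table. The others called there were vps51, higher in trunk crest (authors' adjusted p = 0.0321), and vps72b, higher in cardiac crest (0.0236). For atp6v1c1b the authors' deposited table gave a log2 fold change of 4.09 with a standard error of 0.26.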

How the data were processed

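Reads from sorted cells were deposited as 2 tables. The first, for cardiac crest and non-crest, holds raw read counts per gene made by the authors with featureCounts 1.5.1 on Ensembl release 80 models of GRCz10, per the file headers. Those headers show that a gene was counted from end to end, introns too, and without regard to strand. Bowtie2, Subread and DESeq are named without versions in the submitters' processing notes. The table is named for a later somite stage than the labels give. The labels' protocols name a full-length cDNA kit (SMART-Seq v4) without molecular identifiers, so reads are not independent molecules. The second table, for cardiac crest and trunk crest, holds a deposited normalised signal, reads divided by a size factor per library, beside the authors' log2 fold changes, p-values, −log10 adjusted p-values and a test score. Dividing by the smallest step gave whole reads for 100% of values (tolerance 0.02), equal to the raw counts for all 20847 genes in cardiac crest.

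Cardiac crest and non-crest were compared by edgeR 4.0.16 (TMM, default expression filter, robust quasi-likelihood test), and cardiac and trunk crest by limma 3.58.1 (trend, robust) on log2(value + 1) with no filter, in R 4.3.3. Each fit used the 6 libraries of its groups and all genes, with Benjamini-Hochberg adjusted p-values below 0.05 as calls. Both were tested on simulated data with the same spread between replicates in every gene (dispersion 0.05). Changes were set only in genes with ample reads. Real spread differed between genes and groups (median coefficient of variation of the members 36.7% in non-crest), so the simulated counts do not give the power for the members. On data simulated for 20847 genes of the comparison with trunk crest, 42 of 100 genes changed 2-fold and 100 of 100 changed 4-fold were called, with 5 false calls; for the comparison with non-crest (20373 genes) the counts were 45, 100 and 7. Alternatives were DESeq2 1.42.0 and its size factors, no filter, other pseudocounts (0.5 and 10), a low-value filter, upper-quartile rescaling, edgeR on the recovered reads, a replicate block and leaving out each library.

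The members, lists and tests were chosen with earlier results of these data known. All members are described. Full values are given for up to 12 members past the test in each direction by size of the log2 fold change, for hps5, vps11, vps18, vps39, atp6v1e1b, atp6v0ca, atp6ap2 and vps13d, and for up to 4 genes of each list past the test, with at least 10 CPM or 100 scaled reads in the higher group; 1 gene that this rule would name is not reported here. Coordinates are those of the count table. No sequences were used here.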

Additional observations from a re-analysis of the deposited data

How the results depend on the processing

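Of the 48 members lower than in trunk crest, 44 were lower in all 13 settings. The count was 44 to 48 when 1 library was left out, 47 with upper-quartile rescaling and 47 with edgeR on recovered reads. Calls lost somewhere were atp6v1c2, vps28, vps39 and vps53, and vps26b or vps45 was gained when cardiac crest or trunk crest replicate 3 was left out. The count of members higher than in trunk crest was 2 with upper-quartile rescaling (atp6v0a2a and vps13d) and 0 to 2 with 1 library left out: 0 without cardiac crest replicate 1 or 2, and 2 without trunk crest replicate 3. Upper-quartile rescaling moved the median of all genes from 0.14 to 0.26 and that of the members from -1.78 to -1.66, and called 1 gene of the endosomal list higher. Over all genes, 3205 to 4591 were called against trunk crest with 1 library left out (4829 with all 6), lowest without cardiac crest replicate 2. Against non-crest, vps13d was called in all 12 settings. Over all genes, 294 were called there; DESeq2 called 1116, leaving out 1 library gave 93 to 361, and limiting both groups to replicates 1 and 2, chosen after seeing the data, gave 752. The counts were 102 and 93 without cardiac crest replicates 1 and 2, and 171 and 163 without non-crest replicates 1 and 2; the cause was not tested. Of the lists, DESeq2 called 1 hydrolase, 1 membrane, 2 melanosome, 1 MiT/TFE and 2 endosomal genes higher, and 1 membrane and 1 endosomal gene lower. The log2 fold change of atp6v0ca against non-crest turned negative with DESeq2's size factors (-0.022), DESeq2 (-0.013), no filter (-0.024) and the replicate block (-0.00074), and ran from -0.16 to 0.14 with 1 library left out. That of vps18 ran from -0.048 to 1.29 with 1 library left out and was -0.094 with replicates 1 and 2 alone. Neither was called in any setting. The labels do not say that same-numbered libraries share embryos or a day, although cardiac crest and non-crest libraries of 1 number have consecutive library numbers. Their deviations from the group means correlated at 0.035, 0.030 and 0.18 (cardiac crest and non-crest) and 0.0091, 0.027 and -0.0046 (cardiac and trunk crest), and not every library correlated best with its own number. With the replicate block, 46 members were lower and 1 higher than in trunk crest (4273 genes in all), and 1 higher and 0 lower than in non-crest (284 genes). Depth limits atp6v1c2, with 3.5 to 14.6 scaled reads in cardiac crest.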
